A study of Mus musculus with 12 samples.

Results

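Heat shock proteins and chaperonins were followed here through 83 genes, taken by name as every symbol beginning with Hsp and a family letter or digit, with Dnaj and a, b or c, or with Cct and a digit from 2 to 8, out of 23352 symbols in the deposited tables. They comprised the HSP90, HSP70 and HSP110 families, the mitochondrial HSP60 and HSP10 pair, 45 J proteins and the CCT chaperonin. Also taken were the genes named Hspb after the small heat shock proteins, and Hspbp1 and Hspbap1, which belong to none of these families. The cells were regulatory T cells (Tregs) sorted from spleen and lymph node of female C57BL/6 mice. All mice carried 1 Foxp3 allele with YFP-Cre and 1 wild-type Foxp3 allele (Foxp3YFP-Cre/Foxp3WT). KO denotes the animals with 2 floxed Ezh2 alleles (Ezh2fl/fl) and HET those with 1 floxed and 1 intact allele (Ezh2fl/+), so Cre was present in both and the labels give no Cre-free control. Foxp3 lies on the X chromosome and drives the Cre, so deletion is limited to cells that have expressed Foxp3 from the Cre allele. Within each genotype the cells were parted by surface CD62L, a lymph node homing receptor that is lost on activation, into a CD62Llo and a CD62Lhi fraction. The groups were KO CD62Llo, KO CD62Lhi and HET CD62Llo with 3 libraries each and HET CD62Lhi with 2, because its replicate 3 was left out, as the submitters' label says they did for want of reads. The age of the mice and whether libraries came from single or pooled animals are not stated in the labels, so p-values measure the spread between these libraries, which may be technical.

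Chaperones bind unfolded stretches of other proteins. HSP70 proteins do so in cycles of ATP hydrolysis that J proteins start and nucleotide exchange factors such as the HSP110 family end. HSP90 proteins act later, on nearly folded clients such as kinases and steroid receptors. The ring-shaped chaperonins, CCT in the cytosol and HSP60 with its lid HSP10 in mitochondria, enclose a client in a chamber. The endoplasmic reticulum (ER) has its own set, whose genes respond through XBP1 and ATF6 when secretory load rises, whereas heat and proteotoxic stress in the cytosol act through HSF1. T cells raise many of these genes when they are activated and begin to grow and secrete.

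Promoters of 3 ER members are shown first, because they share an element of the ER stress response and include the ER genes with the largest values below. The ER stress element (CCAAT, then any 9 bases, then CCACG, searched on both strands of the 250 bases before each RefSeq start in GRCm38.p6) was found in 35 of 27025 mouse genes with a sequence in the table, which is 0.13%. Among the 68 members with a promoter there it was found in 3, Hspa5, Hsp90b1 and Dnajc3. These are 3 of the 7 genes with a promoter in the ER set used below. Capitals mark the element in the sequences below. It lies 65 to 47 bases before the start of Hspa5, 105 to 87 before that of Dnajc3, and in Hsp90b1 at 212 to 194 and, on the other strand, at 107 to 89. They are given in the direction of transcription, from chr2:34771840-34772089 on the plus strand, chr10:86705445-86705694 on the minus strand and chr14:118937682-118937931 on the plus strand.
Hspa5: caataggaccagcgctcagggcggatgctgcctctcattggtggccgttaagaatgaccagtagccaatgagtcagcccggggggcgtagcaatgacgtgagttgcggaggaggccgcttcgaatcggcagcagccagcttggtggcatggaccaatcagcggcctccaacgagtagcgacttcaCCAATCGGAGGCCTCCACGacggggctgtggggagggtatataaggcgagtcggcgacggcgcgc
Hsp90b1: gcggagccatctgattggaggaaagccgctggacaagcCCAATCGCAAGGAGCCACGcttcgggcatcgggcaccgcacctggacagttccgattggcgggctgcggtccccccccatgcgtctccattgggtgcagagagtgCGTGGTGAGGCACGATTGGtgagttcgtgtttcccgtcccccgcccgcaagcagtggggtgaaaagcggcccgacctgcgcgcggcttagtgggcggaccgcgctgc
Dnajc3: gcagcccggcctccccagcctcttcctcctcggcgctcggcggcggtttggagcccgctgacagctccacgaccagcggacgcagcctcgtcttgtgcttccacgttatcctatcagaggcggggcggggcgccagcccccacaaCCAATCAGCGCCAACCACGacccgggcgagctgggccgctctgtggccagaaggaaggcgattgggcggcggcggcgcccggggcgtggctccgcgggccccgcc

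A strict heat shock element, searched as 3 alternating units GAA and TTC with any 2 bases between neighbouring units, beginning with either unit and on both strands, was found in 139 of the 27025 genes (0.514%) and in 3 members, Dnajb6 and the neighbours Hspd1 and Hspe1. It was found in 0 of the 6 genes with a promoter in a chosen heat-inducible set used below, which leaves out these 3 members. The Hspd1 and Hspe1 loci lie 215 bases apart, less than the 250 searched, so 1 element may be counted for both. A strict match passes over imperfect elements, so a count of 0 does not show that these promoters lack one. The NF-Y box CCAAT, which is also the first part of the ER stress element, was found in 26 of the 68 members (38.2%) and in 37.5% of all genes. The windows of Hspa1a (chr17:34972157-34972406, minus strand) and Hspa1b (chr17:34959239-34959488, minus strand), the pair of heat-inducible HSP70 genes, are shown because they belong to near-identical copies, whose reads can be hard to assign. The windows are identical at 247 of 250 positions, and capitals mark the 3 positions that differ.
Hspa1a: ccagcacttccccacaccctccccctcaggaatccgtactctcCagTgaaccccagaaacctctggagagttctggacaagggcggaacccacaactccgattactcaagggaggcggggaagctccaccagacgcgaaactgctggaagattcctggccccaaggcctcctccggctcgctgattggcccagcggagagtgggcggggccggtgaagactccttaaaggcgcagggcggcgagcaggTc
Hspa1b: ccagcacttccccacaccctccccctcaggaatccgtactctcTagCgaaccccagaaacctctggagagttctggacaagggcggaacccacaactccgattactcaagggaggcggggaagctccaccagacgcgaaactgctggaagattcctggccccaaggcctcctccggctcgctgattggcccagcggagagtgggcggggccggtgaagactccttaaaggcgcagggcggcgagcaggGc

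Expression was deposited by the authors as FPKM, fragments scaled to transcript length and to the mapped fragments of the library, so levels are per length and can be set side by side between genes. The interval bounds deposited beside the FPKM imply depths of 8.24 to 30.6 (in units of 1e6 fragments per library), an uncertain estimate, and 10597 to 11024 symbols reached an FPKM of 1. A gene was tested where at least 2 of the 11 libraries had an FPKM of at least 1, which 11431 symbols did. Of the 83 members, 66 passed this filter. Differences are given on the log2(FPKM + 1) scale from limma with their standard error (SE), and a gene was called where its p, adjusted by Benjamini-Hochberg over all 11431 genes, was under 0.05. The +1 makes the differences of low genes smaller than their fold change. Treg markers were present throughout, with Foxp3 at 75.9 to 96.8 FPKM. Over all tested genes, KO CD62Llo replicate 3 was the CD62Llo library that correlated best with a CD62Lhi library (KO CD62Lhi, r = 0.963, against r = 0.949 and 0.950 with its own group), so results are also given without it where it matters. Ezh2 was at 12.5, 16.8 and 14.4 FPKM in KO CD62Llo against 18.2, 17.8 and 20.5 in HET CD62Llo, and at 9.15, 11.51 and 11.02 in KO CD62Lhi against 12.7 and 12.5 in HET CD62Lhi. The KO libraries were lower without overlap in each fraction, the calls were not reached (adjusted p = 0.113 and 1), and a value for the whole gene cannot show the loss of the floxed part alone.

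RNA of other cells also differed between the fractions. The summed FPKM of 6 B cell markers was 24.8 to 61.3 in KO CD62Llo against 73.9 to 127 in KO CD62Lhi, and 19.5 to 32.8 in HET CD62Llo against 76.6 and 92.5 in HET CD62Lhi, with 4 of 6 called lower in each genotype. The 7 myeloid markers summed to 107 to 335 in KO CD62Llo against 79.8 to 90.3 in KO CD62Lhi. In HET they summed to 131 to 193 in CD62Llo against 84.2 and 98.1 in CD62Lhi. Of the 4 tested, Lyz2 was called higher in both genotypes and Cst3 in HET, and these made up most of the sums. Itgam, not tested, had lower means in CD62Llo, 0.368 against 0.420 FPKM in KO and 0.258 against 0.331 in HET. The 5 tested CD8 T and NK cell markers had 3 members lower and 1 higher in each genotype. Plasma cells are rich in ER chaperones, and of 6 plasma cell markers in the files Derl3 was called higher in both genotypes, Prdm1 higher and Mzb1 lower in HET. Their sum was 8.95 to 14.5 in KO CD62Llo against 9.84 to 12.1 in KO CD62Lhi and 13.6 to 21.5 in HET CD62Llo against 7.05 and 14.6 in HET CD62Lhi. Of the markers that define plasma cells, Sdc1 had 0.162, 0.474 and 0.496 FPKM in KO CD62Llo against 0.177, 0.162 and 0.210 in KO CD62Lhi, and 0.659, 0.405 and 0.362 in HET CD62Llo against 0.200 and 0.142 in HET CD62Lhi. It was thus low, below the filter and not tested, overlapping between the KO fractions and higher in HET CD62Llo without overlap. Tnfrsf17 stayed at or below 0.281 FPKM in every library. Of 8 tested genes that respond to tissue handling, 3 were called higher and 1 lower in each genotype. The part of these other cells and of handling in the differences below was not tested.

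The cytosolic workhorses dominated the chaperone pool. Hspa8, the constitutive cytosolic HSP70, had 716 to 1009.7 FPKM and made up 19.3% to 23.6% of the members' summed FPKM, which was 3512 to 4417 per library. Hsp90ab1, the constitutive cytosolic HSP90, had 443 to 651 FPKM (12.6% to 15.2%), and the 7 expressed CCT subunits together 692 to 832 (18.7% to 22.0%). At the other end, 7 members were listed at 0 in all 11 libraries (Dnajb8, Dnajc22, Dnajc5b, Dnajc5g, Hspb2, Hspb3 and Hspb8) and 10 more did not reach the filter. Of the 8 genes of the Hspb group 6 were among these, including Hspb1, the main small heat shock protein of many tissues, at no more than 1.40 FPKM. The variation between libraries of a group also differed widely between members. The pooled SD on the log2 scale was 0.03 for Dnajc5, a synaptic vesicle J protein, and 0.05 for Cct7, but 0.32 for Hsph1 and 1.21 and 1.40 for Hspa1a and Hspa1b.

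Few chaperones were called between the CD62L fractions. Those called in both genotypes, all higher in CD62Llo, were Hspa5, Dnajc1 and Hspa13 of the ER and the cytosolic Dnaja4 and Hspa4l. Between KO CD62Llo and KO CD62Lhi, 6 of 66 tested members were called (9.09%), 5 higher and 1 lower, against 16.2% of all tested genes (11.9% higher and 4.26% lower). Between HET CD62Llo and HET CD62Lhi, 10 of 66 were called (15.2%), 8 higher and 2 lower, against 27.7% of all genes (18.8% higher and 8.88% lower). The members' shares therefore lay below the background in both genotypes, a difference that was not tested. Their median log2 difference was 0.04 in each genotype, against 0.05 for all tested genes in KO and 0.07 in HET. Without KO CD62Lhi replicate 1 or 2 the KO count fell to 3 or 2 members, and without HET CD62Lhi replicate 1 or 2 the HET count fell to 6 or 5. The split depended on scaling: after quantile normalization the calls were 2 higher and 2 lower in KO and 6 higher and 7 lower in HET, and after median centring 3 and 2 in KO and 6 and 6 in HET. Either scaling moved the median of all genes by -0.10 in HET and by -0.07 or -0.08 in KO. In bulk samples fewer cells of a type and less RNA per cell cannot be told apart.

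Hspa5 encodes BiP, the HSP70 of the ER lumen (chr2:34772090-34776529), and was the ER member with the largest difference. It had 153, 167 and 153 FPKM in KO CD62Llo against 111, 109 and 116 in KO CD62Lhi, and 176, 187 and 206 in HET CD62Llo against 115 and 111 in HET CD62Lhi. The CD62Llo libraries were above the CD62Lhi libraries without overlap in each genotype. The log2 difference was 0.49 in KO (SE 0.06, adjusted p = 0.000926) and 0.74 in HET (SE 0.07, adjusted p = 8.92e-05), and both calls held in every alternative run. Hsp90b1, the ER HSP90 known as GRP94 that folds integrins and Toll-like receptors, had 108.8, 109.5 and 109.7 FPKM in KO CD62Llo against 92.5, 91.3 and 94.0 in KO CD62Lhi. In HET it had 116, 116 and 141 FPKM in CD62Llo against 96.6 and 86.8 in CD62Lhi. The fractions did not overlap in either genotype, but only the HET difference was called (log2 difference 0.43, SE 0.08, adjusted p = 0.00455; KO 0.24, SE 0.08, adjusted p = 0.0632). The HET call was lost without HET CD62Lhi replicate 2 (0.36, adjusted p = 0.0514) and with only the HET libraries fitted (0.43, adjusted p = 0.0509), whereas KO was called with only the KO libraries fitted (0.24, adjusted p = 0.0157) and with the replicate block (0.24, adjusted p = 0.0452). Which genotype was called thus depended on these choices.

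Dnajc1, an ER membrane J protein that recruits BiP to ribosomes, had 15.8, 15.5 and 15.1 FPKM in KO CD62Llo against 13.7, 12.4 and 12.4 in KO CD62Lhi. In HET it had 17.1, 18.3 and 17.6 FPKM in CD62Llo against 13.0 and 12.2 in CD62Lhi. Its log2 difference was 0.25 in KO (adjusted p = 0.0115) and 0.46 in HET (adjusted p = 0.000495). In KO the call did not hold without KO CD62Lhi replicate 2 (0.23, adjusted p = 0.0521), after quantile normalization (0.19, adjusted p = 0.0575) or after median centring (0.17, adjusted p = 0.0603), and the groups did not overlap. Hspa13, a small HSP70 relative of the ER named here after its values were seen because its level is low, had 3.72, 4.17 and 3.21 FPKM in KO CD62Llo against 2.52, 2.62 and 2.79 in KO CD62Lhi. In HET it had 3.96, 4.47 and 4.45 FPKM in CD62Llo against 2.70 and 2.86 in CD62Lhi. The log2 difference was 0.37 in KO (adjusted p = 0.0158) and 0.48 in HET (adjusted p = 0.00407). In KO the call did not hold without KO CD62Lhi replicate 1 (0.34, adjusted p = 0.0629), without KO CD62Lhi replicate 2 (0.36, adjusted p = 0.0555) without KO CD62Llo replicate 2 (0.29, adjusted p = 0.0540), after quantile normalization (0.24, adjusted p = 0.0886) and with only the KO libraries fitted (0.37, adjusted p = 0.0503).

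The other 4 members of the ER set had positive differences that were not called with all libraries and the settings above, and 3 of them were called under an alternative. Dnajb9, a J protein that restrains the stress sensor IRE1, had 9.47, 7.67 and 7.84 FPKM in KO CD62Llo against 6.78, 6.91 and 7.16 in KO CD62Lhi. In HET it had 7.79, 7.71 and 8.54 in CD62Llo against 6.70 and 6.44 in CD62Lhi, with log2 differences of 0.22 in KO (adjusted p = 0.0767) and 0.25 in HET (adjusted p = 0.0528, and 0.28, adjusted p = 0.0493 with a pseudocount of 0.1). The groups did not overlap in either genotype. Dnajc3, a luminal co-chaperone of BiP also known as P58IPK, had 32.5, 36.7 and 30.7 FPKM in KO CD62Llo against 28.3, 30.0 and 28.9 in KO CD62Lhi, and 33.8, 31.8 and 31.4 in HET CD62Llo against 27.98 and 28.29 in HET CD62Lhi. Its log2 difference was 0.19 in both genotypes (adjusted p = 0.0798 in KO and 0.0746 in HET). It was called in KO without KO CD62Llo replicate 3 (0.24, adjusted p = 0.0322) and in HET with the replicate block (0.22, adjusted p = 0.0405). Dnajb11, which hands clients to BiP, and Dnajc10, a J protein that reduces disulfide bonds, differed by 0.13 and 0.12 in KO and by 0.11 and 0.20 in HET. Dnajc10 was called in HET with the replicate block (0.23, adjusted p = 0.0401). The ER set was grouped with earlier results of these data known, and ER members here means its 8 genes. Of these 8 genes 8 were higher in CD62Llo in both genotypes under each of the scalings run. The set is not every ER gene that the name rule takes. The ER membrane J proteins Dnajb12, Dnajb14, Dnajc14 and Dnajc18, named after their values were seen, were tested and are not in it. Their log2 differences were 0.02, 0.16, 0.08 and 0.14 in KO and 0.01, 0.07, 0.04 and 0.13 in HET, and none was called. Of all 11431 tested genes, 7171 were higher in KO CD62Llo and 7059 in HET CD62Llo. In KO 3 ER members were called (37.5%, against 16.2% of all tested genes) and in HET 4 (50%, against 27.7%). The median log2 difference of the ER members was 0.23 in KO and 0.34 in HET, against 0.05 and 0.07 for all tested genes. Their summed FPKM was 379 to 405 in KO CD62Llo against 311 to 317 in KO CD62Lhi and 420 to 472 in HET CD62Llo against 304 and 320 in HET CD62Lhi. The KO count was 4 without KO CD62Llo replicate 3, 2 without KO CD62Llo replicate 2, 2 and 1 without KO CD62Lhi replicates 1 and 2, and 1 and 2 after quantile normalization and median centring. The HET count stayed at 4 under both scalings, was 3 without HET CD62Lhi replicate 2 and with only the HET libraries fitted, and was 6 with the replicate block.

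**Figure D1:**
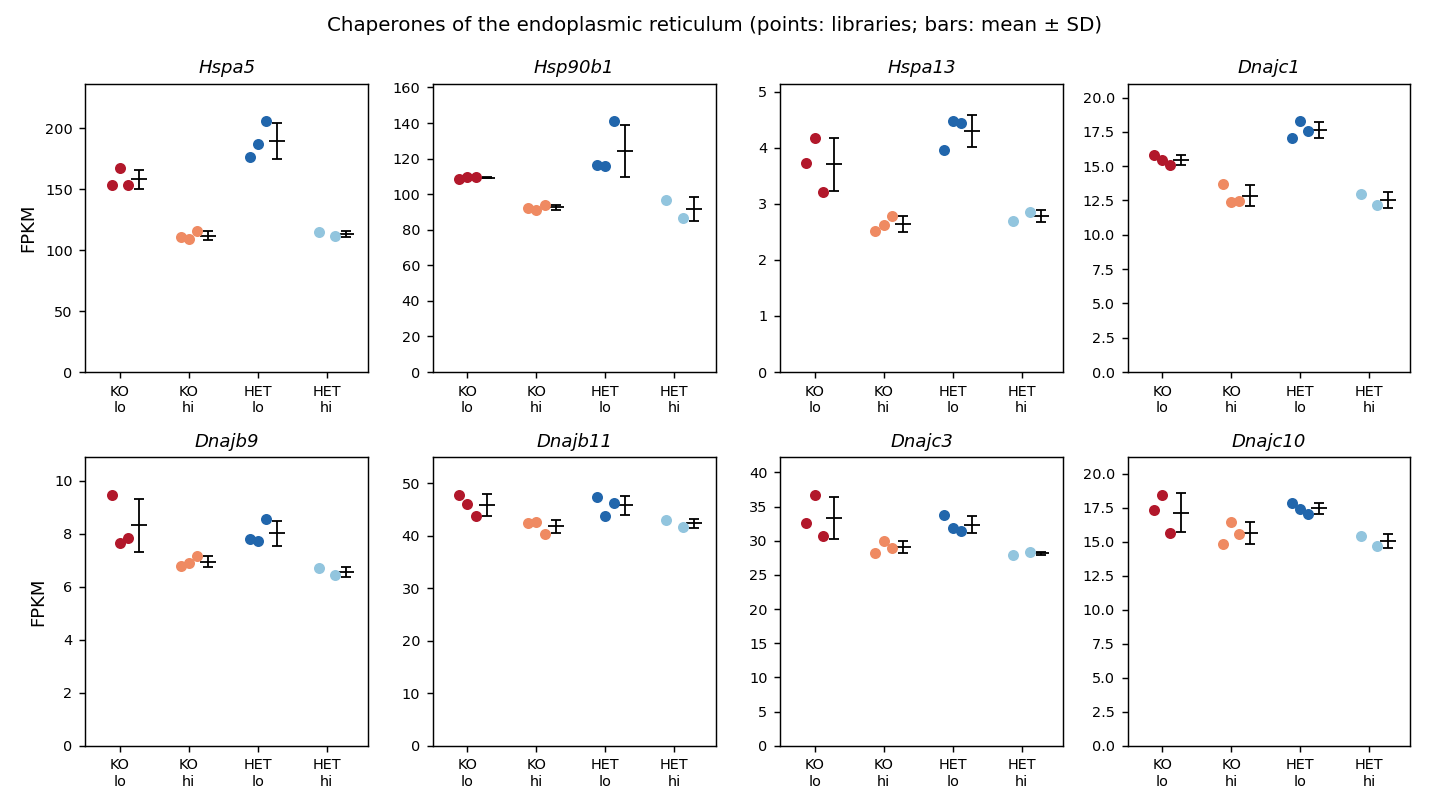
FPKM (vertical axes, from 0) of the 8 ER members in each library by group (horizontal axes, lo for CD62Llo and hi for CD62Lhi), with the mean ± SD of the 3 libraries of a group (2 for HET hi) beside the points. Hspa5 lies at 153 to 167 in KO lo and 176 to 206 in HET lo, above 109 to 116 in the CD62Lhi groups.

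Outside the ER, Dnaja4, a cytosolic J protein (chr9:54699559-54716317), had the largest called difference of all members. It had 6.89, 8.78 and 7.71 FPKM in KO CD62Llo against 4.55, 4.71 and 5.16 in KO CD62Lhi, and 9.22, 8.74 and 9.93 in HET CD62Llo against 5.03 and 4.19 in HET CD62Lhi. The fractions were separate in each genotype, and the log2 difference was 0.59 in KO (SE 0.09, adjusted p = 0.00259) and 0.88 in HET (SE 0.10, adjusted p = 0.000284), called in every alternative run. The other 3 genes of its family, Dnaja1, Dnaja2 and Dnaja3, were not called in any comparison. Dnaja1, a heat-inducible partner of HSC70, overlapped between fractions at 41.9, 38.8 and 52.0 FPKM in KO CD62Llo against 41.9, 37.0 and 34.1 in KO CD62Lhi and at 43.5, 50.7 and 62.1 in HET CD62Llo against 43.8 and 50.6 in HET CD62Lhi. Hspa4l, a cytosolic HSP110 protein that exchanges nucleotide on HSP70, had 7.75, 9.93 and 8.72 FPKM in KO CD62Llo against 5.96, 5.83 and 6.65 in KO CD62Lhi, and 8.26, 10.9 and 11.3 in HET CD62Llo against 5.63 and 6.59 in HET CD62Lhi. Its groups did not overlap, and its log2 difference was 0.45 in KO (adjusted p = 0.0329) and 0.64 in HET (adjusted p = 0.00651). The HET call was lost without HET CD62Lhi replicate 1 (0.54, adjusted p = 0.0653). The KO call was lost without any of the KO CD62Lhi replicates or KO CD62Llo replicates 2 or 3 (0.37 to 0.50, adjusted p = 0.0511 to 0.120). It was also lost after quantile normalization (0.35, adjusted p = 0.0890), after median centring (0.37, adjusted p = 0.0687) and with no filter (0.45, adjusted p = 0.0610).

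**Figure D2:**
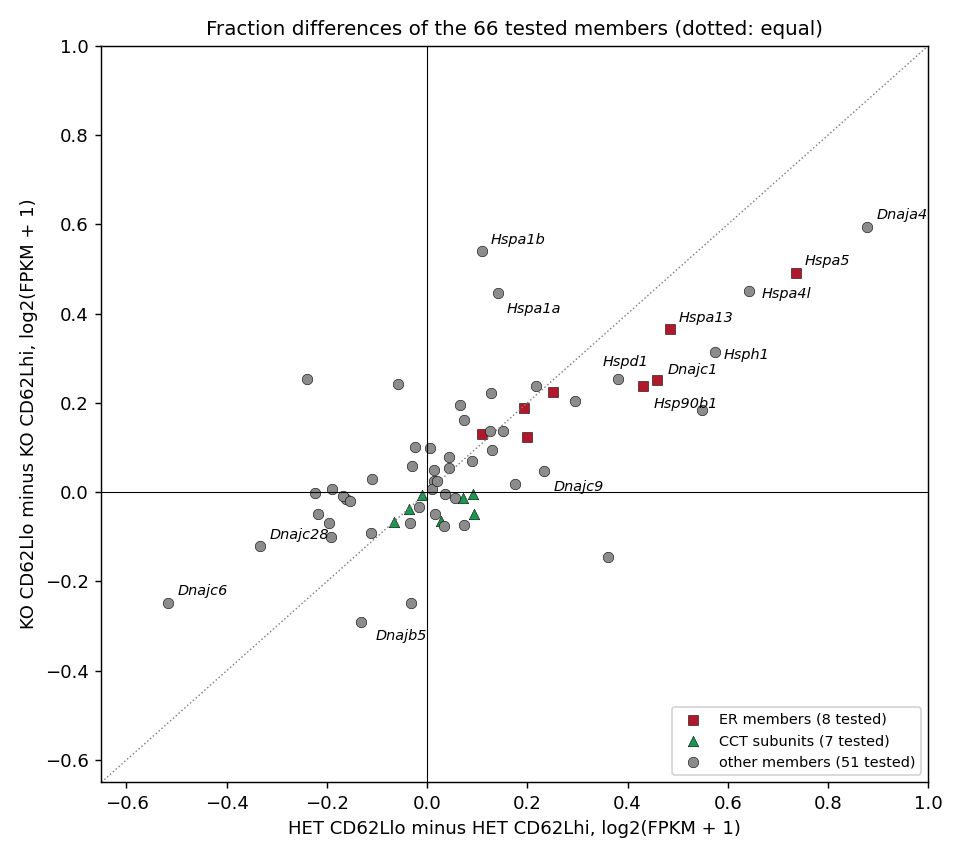
Log2(FPKM + 1) difference between CD62Llo and CD62Lhi in KO (vertical axis) and HET (horizontal axis) for the 66 tested members, with called members and Hsph1, Hspa1a and Hspa1b named and a dotted line where both are equal. The 2 axes share no library; the 8 ER members lie to the upper right and the 7 CCT subunits near the origin, between -0.07 and 0.09.

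In mitochondria the chaperonin was called between the HET fractions and its lid was not. Hspd1 encodes HSP60 and Hspe1 its lid HSP10, neighbouring genes on chromosome 1 whose loci lie 215 bases apart and that are read in opposite directions from a shared promoter region. Hspd1 (chr1:55077834-55087932) had 66.9, 74.9 and 72.3 FPKM in KO CD62Llo against 57.7, 58.5 and 62.9 in KO CD62Lhi, and 66.7, 76.1 and 94.96 in HET CD62Llo against 59.9 and 60.1 in HET CD62Lhi. Its fractions did not overlap, with a log2 difference of 0.25 in KO (adjusted p = 0.156) and 0.38 in HET (adjusted p = 0.0438). The HET call was lost without HET CD62Lhi replicate 1 (0.38, adjusted p = 0.161) or 2 (0.38, adjusted p = 0.152), without HET CD62Llo replicate 2 (0.40, adjusted p = 0.0750) or 3 (0.24, adjusted p = 0.0624), after either scaling (0.36, adjusted p = 0.0552, and 0.28, adjusted p = 0.131), with no filter (0.38, adjusted p = 0.0697) and with only the HET libraries fitted (0.38, adjusted p = 0.144). In KO it was called with only the KO libraries fitted (0.25, adjusted p = 0.0486). Hspe1 (chr1:55088148-55091317) overlapped, at 121, 145 and 136 FPKM in KO CD62Llo against 130.01, 125 and 139 in KO CD62Lhi and 128, 121 and 149 in HET CD62Llo against 129.9 and 131 in HET CD62Lhi. Its log2 difference was 0.03 in KO (95% interval -0.17 to 0.23) and 0.02 in HET (-0.20 to 0.24). The ratio of Hspe1 to Hspd1 FPKM was 1.802, 1.93 and 1.88 in KO CD62Llo against 2.26, 2.14 and 2.21 in KO CD62Lhi, and 1.93, 1.59 and 1.57 in HET CD62Llo against 2.17 and 2.18 in HET CD62Lhi, without overlap in either genotype. That ratio was chosen after the values were seen and is a description. Hspa9, the mitochondrial HSP70, had 48.2, 58.6 and 55.0 FPKM in KO CD62Llo against 54.1, 55.3 and 57.6 in KO CD62Lhi, and 51.7, 54.5 and 57.5 in HET CD62Llo against 56.2 and 51.7 in HET CD62Lhi, with overlap and log2 differences of -0.05 and 0.02.

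The CCT chaperonin, which folds actin and tubulin, showed no called difference. None of the 7 expressed subunits (Cct2, Cct3, Cct4, Cct5, Cct6a, Cct7 and Cct8) was called in any of the 5 contrasts or under any alternative, and 0 of 7 had an unadjusted p under 0.05 in any of them, against 29.3% of all genes between the KO fractions and 39.3% between the HET fractions. Cct5, the most abundant, had 137, 153 and 153 FPKM in KO CD62Llo against 147, 159 and 158 in KO CD62Lhi, and 140.4, 161 and 163 in HET CD62Llo against 160.3 and 163 in HET CD62Lhi. Cct6a, the least abundant, had 67.1, 69.1 and 70.3 FPKM in KO CD62Llo against 69.9, 70.9 and 72.8 in KO CD62Lhi, and 63.5, 71.7 and 82.9 in HET CD62Llo against 68.1 and 67.3 in HET CD62Lhi. The fractions of both subunits overlapped in each genotype. Cct2, Cct3, Cct4, Cct7 and Cct8 ranged from 82.5 to 156 FPKM over all libraries. The log2 differences of the 7 subunits were -0.07 to -0.00 between the KO fractions and -0.07 to 0.09 between the HET fractions. Their 95% intervals reached no further than -0.23 to 0.16 in KO and -0.24 to 0.30 in HET. In KO 0 of 7 differences were positive under each scaling, but 4 of 7 were without KO CD62Llo replicate 1, where the median turned to 0.03, against -0.04. In HET 4 of 7 were, against 3 after quantile normalization and 0 after median centring, so that their direction depends on a library in KO and on scaling in HET. Tcp1, the eighth subunit, which the name rule does not take, had 60.5, 68.7 and 65.997 FPKM in KO CD62Llo against 58.4, 65.4 and 63.6 in KO CD62Lhi, and 64.1, 72.4 and 79.4 in HET CD62Llo against 63.5 and 63.7 in HET CD62Lhi, and was not called. Cct6b, a testis form, and Cct8l1 stayed at or below 0.245 FPKM.

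**Figure D3:**
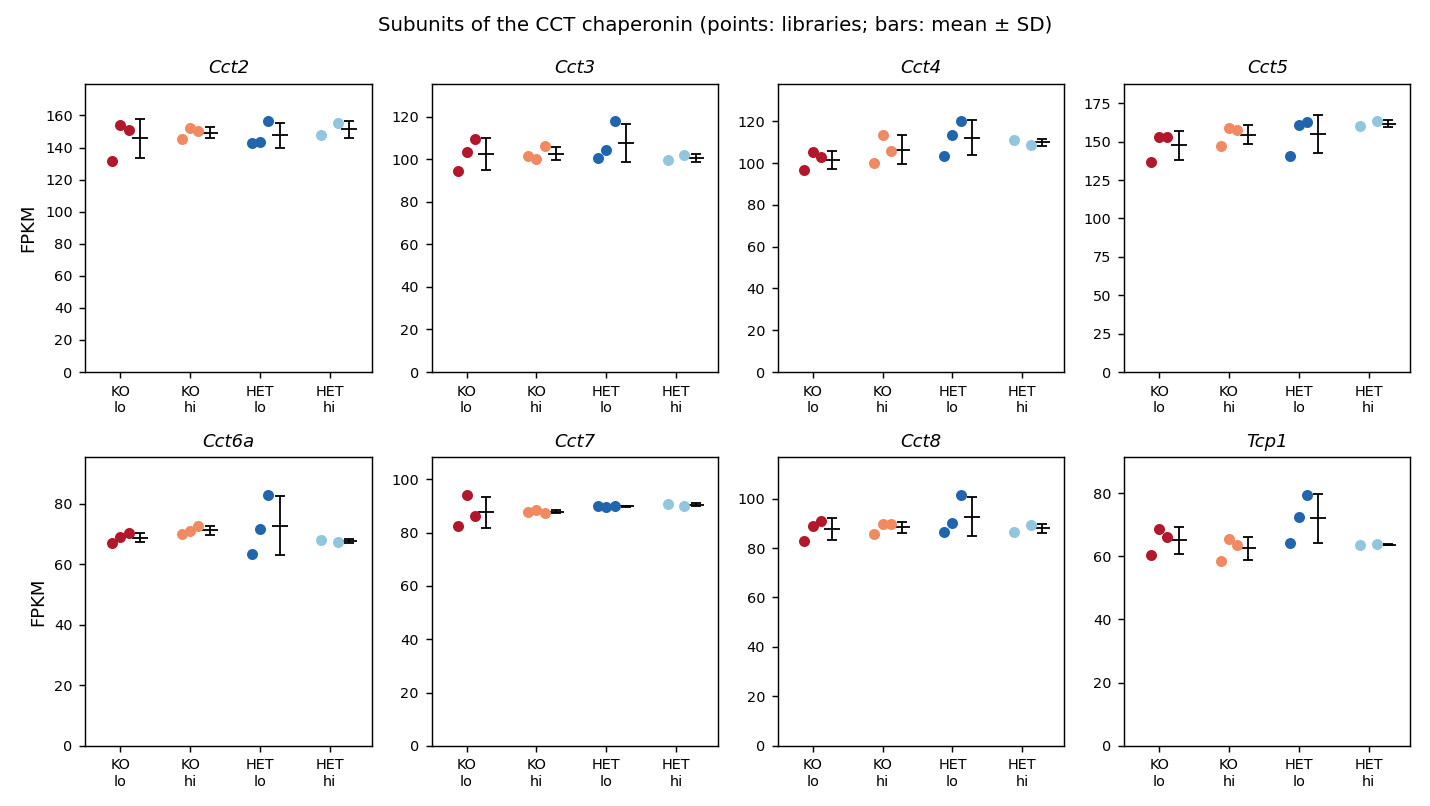
FPKM (vertical axes, from 0) of the 7 expressed Cct members and of Tcp1 in each library by group (horizontal axes, lo for CD62Llo and hi for CD62Lhi), with the mean ± SD of the 3 libraries of a group (2 for HET hi). The group means of a subunit lie close together, as in Cct7 at 82.5 to 94.1 over all 11 libraries.

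Hspa4l aside, the cytosolic HSP90, HSC70 and HSP110 genes were not called between the fractions. Hsp90aa1, the inducible HSP90, had 89.5, 94.8 and 100.1 FPKM in KO CD62Llo against 85.4, 78.7 and 82.2 in KO CD62Lhi, and 96.3, 115 and 131 in HET CD62Llo against 85.5 and 99.1 in HET CD62Lhi. The fractions were apart in KO and overlapped in HET, with log2 differences of 0.20 (adjusted p = 0.232) and 0.29 (adjusted p = 0.0914). Without HET CD62Llo replicate 1 the HET difference was called (0.41, adjusted p = 0.0128). Hsp90ab1 had 541, 574 and 595 FPKM in KO CD62Llo against 519.7, 443 and 488 in KO CD62Lhi, and 565, 621 and 651 in HET CD62Llo against 497 and 555 in HET CD62Lhi. These did not overlap, and the log2 differences of 0.24 and 0.22 were not called, except in HET without HET CD62Llo replicate 1 (0.27, adjusted p = 0.0499). Hspa8 overlapped in both genotypes, at 778, 743 and 841 FPKM in KO CD62Llo against 817, 716 and 719.5 in KO CD62Lhi and 831, 949 and 1009.7 in HET CD62Llo against 843 and 901 in HET CD62Lhi. Hsph1, a heat-inducible HSP110, had 18.1, 16.7 and 28.1 FPKM in KO CD62Llo against 17.7, 14.4 and 16.6 in KO CD62Lhi, and 22.1, 26.2 and 40.6 in HET CD62Llo against 18.8 and 19.1 in HET CD62Lhi. Replicate 3 was the highest CD62Llo library in each genotype, and the log2 differences of 0.31 and 0.57 were not called (adjusted p = 0.406 and 0.129). Dnajb1, the heat-inducible J protein that works with HSP70, had 36.2, 31.7 and 34.3 FPKM in KO CD62Llo against 42.7, 35.0 and 32.6 in KO CD62Lhi, and 37.7, 47.2 and 37.2 in HET CD62Llo against 42.2 and 50.9 in HET CD62Lhi. A chosen heat-inducible set had 6 tested members, Dnaja1, Dnajb1, Hsp90aa1, Hspa1a, Hspa1b and Hsph1. It is not complete, and Dnaja4, Hspa4l and Hspd1, called in HET above, are not in it. The SE of Hspa1a and Hspa1b was 0.95 and 1.11 in HET, so only a large difference could be called for them. Of the 6 members of the set 0 were called by limma with all libraries in either genotype, against 16.2% of all tested genes in KO and 27.7% in HET. An unadjusted p under 0.05 was reached by 0 of them in KO and 1 in HET, against 29.3% and 39.3% of all genes. With 6 genes such counts are small, and the difference from these shares was not tested.

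Of the 39 J proteins tested, 3 were called between the KO fractions (7.69%, against 16.2% of all genes) and 5 between the HET fractions (12.8%, against 27.7%), Dnaja4 and Dnajc1 among them in both. Dnajb5, a cytosolic J protein, was lower in CD62Llo in KO, at 5.81, 6.50 and 6.47 FPKM against 7.69, 8.69 and 7.31 in KO CD62Lhi, without overlap (log2 difference -0.29, adjusted p = 0.0219). In HET it had 6.28, 6.58 and 6.96 FPKM in CD62Llo against 7.51 and 7.14 in CD62Lhi, also without overlap (-0.13, adjusted p = 0.255), and was called lower after quantile normalization (-0.27, adjusted p = 0.0244) and median centring (-0.23, adjusted p = 0.0412). In KO the call did not hold without KO CD62Lhi replicate 1 (-0.31, adjusted p = 0.0555) or 2 (-0.23, adjusted p = 0.0789) without KO CD62Llo replicate 1 (-0.25, adjusted p = 0.0720) and with only the KO libraries fitted (-0.29, adjusted p = 0.0650). Dnajc5, named after its values were seen, was lower in CD62Llo without overlap, at 40.2, 39.98 and 42.2 FPKM in KO CD62Llo against 43.6, 44.2 and 42.8 in KO CD62Lhi and at 42.2, 40.4 and 41.4 in HET CD62Llo against 45.3 and 44.3 in HET CD62Lhi. It was not called (-0.09, adjusted p = 0.167 in KO and -0.11, adjusted p = 0.0958 in HET) except after median centring in KO (-0.17, adjusted p = 0.0215) and in HET (-0.21, adjusted p = 0.00785) and after quantile normalization in HET (-0.16, adjusted p = 0.0246). Dnajc9, a histone chaperone, was called in HET at 59.8, 57.0 and 53.5 FPKM in CD62Llo against 49.3 and 46.8 in CD62Lhi (0.23, adjusted p = 0.0377), and had 50.2, 57.5 and 49.6 in KO CD62Llo against 50.2, 51.0 and 50.6 in KO CD62Lhi (0.05, adjusted p = 0.682). The HET call was lost without any of HET CD62Lhi replicates 1 and 2 or HET CD62Llo replicates 1 and 2 (0.20 to 0.27, adjusted p = 0.0860 to 0.202) after either scaling (0.19, adjusted p = 0.0530, and 0.13, adjusted p = 0.123) and with only the HET libraries fitted (0.23, adjusted p = 0.0679). Low genes called lower in HET CD62Llo, and named after their values were seen, were Dnajc6, the clathrin uncoating factor auxilin, and Dnajc28. Dnajc6 had 0.701, 0.495 and 0.343 FPKM in HET CD62Llo against 1.02 and 1.29 in HET CD62Lhi (-0.52, adjusted p = 0.0170, and -0.43, adjusted p = 0.133 without HET CD62Lhi replicate 2). With only the HET libraries fitted the call was lost too (adjusted p = 0.0623), and in KO Dnajc6 was called after quantile normalization (-0.50, adjusted p = 0.0191). Dnajc28 had 0.788, 1.03 and 1.05 FPKM in HET CD62Llo against 1.33 and 1.59 in HET CD62Lhi (-0.33, adjusted p = 0.0410). This call was lost without any 1 of the 5 HET libraries (adjusted p = 0.0507 to 0.244) and with only these fitted (adjusted p = 0.106).

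Hspa1a and Hspa1b, the strictly heat-inducible HSP70 genes (chr17:34969359-34972156 and chr17:34956429-34959238), were low and differed widely between the replicate numbers in the labels. Hspa1a had 8.65, 1.51 and 0.211 FPKM in KO CD62Llo replicates 1, 2 and 3 against 4.60, 0.920 and 0.0796 in KO CD62Lhi, and 3.83, 0.660 and 0.412 in HET CD62Llo against 2.20 and 0.297 in HET CD62Lhi replicates 1 and 2. The 4 libraries numbered 1 lay at 2.20 to 8.65 FPKM, the 4 numbered 2 at 0.297 to 1.51 and the 3 numbered 3 at 0.0796 to 0.412. Libraries numbered 1 thus lay above all others. Hspa1b had 3.24 to 13.0 FPKM in the libraries numbered 1, 0.471 to 2.35 in those numbered 2 and 0.128 to 0.614 in those numbered 3. The ratio of Hspa1b to Hspa1a was 1.24 to 1.61 in the 11 libraries, and since the genes are near-identical copies the division of reads between them is uncertain. A limma F test of the replicate number with the groups as terms, added after the values were seen, gave an adjusted p of 0.0201 for each. They ranked 7 and 8 among 11431 genes, and 17 genes passed in all (0.149%), 2 of them members. The labels do not say whether a number marks a day, a litter or a sort. None of the 5 contrasts was called for either gene, and their intervals were wide, from -1.47 to 2.36 for Hspa1a between the KO fractions and -2.00 to 2.29 between the HET fractions. Within a number and genotype CD62Llo exceeded CD62Lhi for both genes in 5 of 5 pairs of libraries. The share of all genes that do so was not counted, and near-identical copies are not independent results. A pairing of the fractions by number is also not settled. With the number as a block the log2 difference of Hspa1a was 0.45 in KO (adjusted p = 0.188) and 0.66 in HET (adjusted p = 0.0813), and that of Hspa1b 0.54 in KO (adjusted p = 0.170) and 0.71 in HET (adjusted p = 0.0973), which were not called. The constitutive Hspa8 was 35.9 to 3459 times the sum of the pair.

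**Figure D4:**
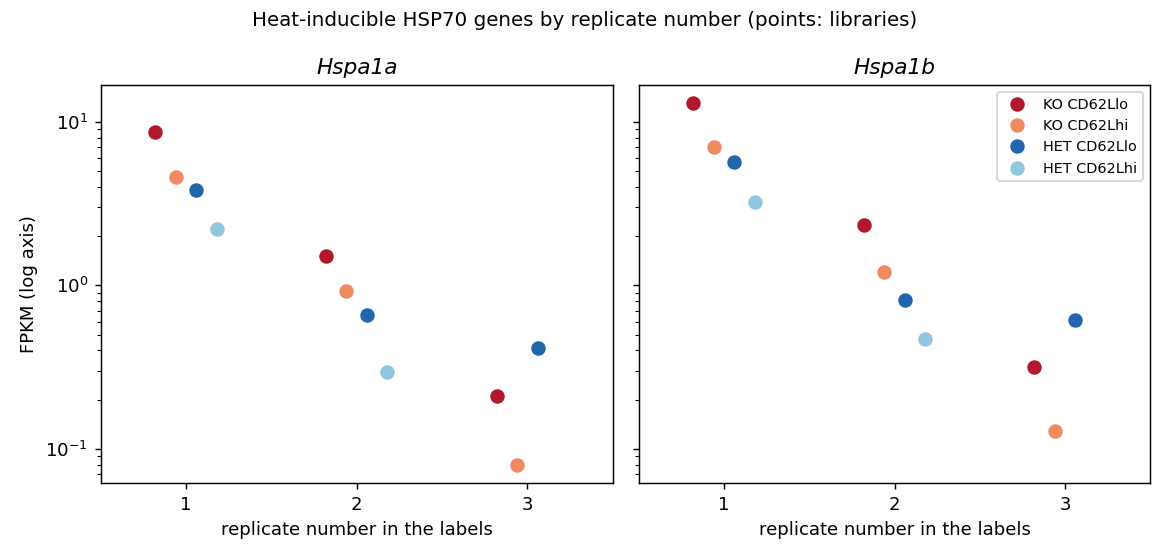
FPKM of Hspa1a and Hspa1b on a log axis (vertical) by the replicate number in the labels (horizontal), each point a library and each colour a group. Libraries numbered 1 lie at 2.20 to 8.65 for Hspa1a and 3.24 to 13.0 for Hspa1b, above those numbered 2 and 3 in every group.

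No chaperone gene was called between the genotypes in either fraction. Between KO CD62Llo and HET CD62Llo 0 of 66 members were called by limma, against 4.6% of all tested genes (1.36% higher and 3.25% lower). An unadjusted p under 0.05 was reached by 6 of 66 members, against 2160 of 11431 genes (18.9%). The members' median log2 difference was -0.04, against -0.03 for all genes. Hspa5 came nearest, at 153, 167 and 153 FPKM in KO CD62Llo against 176, 187 and 206 in HET CD62Llo. The KO libraries lay below the HET libraries without overlap, with a log2 difference of -0.26 (SE 0.06, adjusted p = 0.0515). It was called with the replicate number as a block (-0.26, adjusted p = 0.0499), which made the count of members 1, without HET CD62Llo replicate 1 (-0.31, adjusted p = 0.0327) and without KO CD62Llo replicate 2 (-0.30, adjusted p = 0.0377). Hsp90aa1 had 89.5, 94.8 and 100.1 FPKM in KO CD62Llo against 96.3, 115 and 131 in HET CD62Llo, with overlap (-0.25, adjusted p = 0.231), and was called only without HET CD62Llo replicate 1 (-0.37, adjusted p = 0.0498). Dnajc1 was lower in KO CD62Llo at 15.1 to 15.8 FPKM against 17.1 to 18.3 in HET CD62Llo, without overlap (-0.18, adjusted p = 0.106). Dnaja4 had 6.89 to 8.78 FPKM in KO CD62Llo against 8.74 to 9.93 in HET CD62Llo (-0.23, adjusted p = 0.218). Of the 8 ER members 5 had a negative difference and 3 a positive one, with a median of -0.10 and a range of -0.26 to 0.04. Under either other scaling 4 were positive. Without KO CD62Llo replicate 3 the ER median was -0.03 and 4 were positive. Without KO CD62Llo replicate 2 it was -0.13 and 1 was positive, so the size depends on the library left out. The 7 CCT subunits had differences of -0.14 to -0.02, with intervals within -0.29 to 0.13, and 1 or 2 of them were positive under the other scalings.

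Between KO CD62Lhi and HET CD62Lhi 0 of 66 members and 0 of the 11431 genes were called by limma, so the background is 0%. At an unadjusted p under 0.05 there were 3 of 66 members, against 328 of 11431 genes (2.87%). These were Dnajb1 (-0.33, unadjusted p = 0.0371), Hspa8 (-0.22, unadjusted p = 0.0499) and Dnajc15, a mitochondrial J protein (0.41). Dnajb1 lay at 32.6 to 42.7 FPKM in KO CD62Lhi against 42.2 and 50.9 in HET CD62Lhi, which overlap, and Hspa8 at 716 to 817 against 843 and 901, which do not. Dnajc15 was named after its values were seen. The Hspa5 values of 111, 109 and 116 FPKM in KO CD62Lhi against 115 and 111 in HET CD62Lhi overlapped, with a log2 difference of -0.02 (95% interval -0.18 to 0.14).

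**Figure D5:**
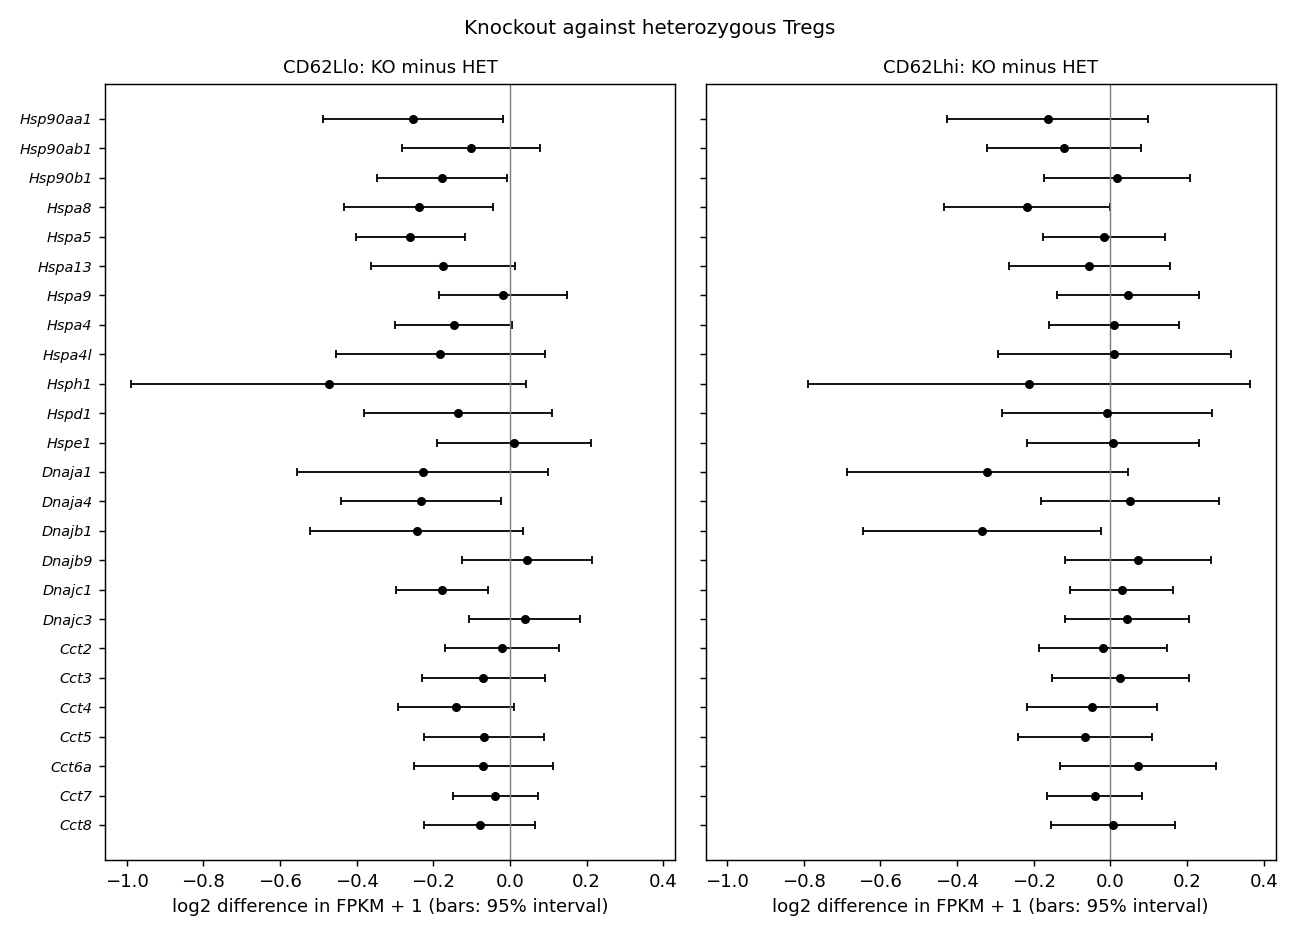
Log2(FPKM + 1) difference of KO minus HET (horizontal axes) with its 95% interval for 25 members (rows), in CD62Llo (left) and CD62Lhi (right). In CD62Llo Hspa5 lies at -0.26, and in CD62Lhi the same gene lies at -0.02.

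Whether the fraction difference itself depended on Ezh2 was asked with the interaction of genotype and fraction. It was called for 0 of 66 members by limma and for 1 of the 11431 genes (0.00875%). An unadjusted p under 0.05 was reached by 2 of 66 members, against 868 of 11431 genes (7.59%). These were Hspa5, whose fraction difference in KO minus that in HET was -0.24 (SE 0.10, unadjusted p = 0.0294, adjusted p = 0.583), and Dnajc1 (-0.21, SE 0.08, unadjusted p = 0.0291, adjusted p = 0.582). Of the 8 ER members 1 had a positive interaction (3 after quantile normalization and 2 after median centring), with a median of -0.10 against -0.01 for all genes. Without KO CD62Llo replicate 3 the ER median was -0.03 and 3 were positive. Without KO CD62Llo replicate 2 it was -0.16 and 2 were positive. For Dnaja4 the interaction was -0.28 (95% interval -0.60 to 0.03). A larger number of calls between the HET fractions than between the KO fractions is thus not shown to be a difference between the genotypes.

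The partners of these chaperones were read from a list of 66 pathway genes, of which 65 were in the files and 63 tested. Between KO CD62Llo and KO CD62Lhi 6 were called higher and 0 lower, and between HET CD62Llo and HET CD62Lhi 17 higher and 0 lower, with median differences of 0.10 and 0.13. These are 9.52% and 27.0% of the list, against 11.9% and 18.8% of all tested genes called higher. The 0 lower stands against 4.26% and 8.88% of all tested genes called lower. In either direction 16.2% and 27.7% of all tested genes were called. These differences in share were not tested. The HET split became 12 higher and 3 lower after quantile normalization and 10 and 6 after median centring, and the HET count fell to 9 and 7 without HET CD62Lhi replicates 1 and 2. Calr, the ER lectin chaperone calreticulin, had 224, 223 and 217 FPKM in KO CD62Llo against 199, 179.7 and 188 in KO CD62Lhi, and 239.6, 253 and 246 in HET CD62Llo against 186 and 191 in HET CD62Lhi. It was called in both genotypes (log2 difference 0.23, adjusted p = 0.0102 in KO and 0.38, adjusted p = 0.000682 in HET). Pdia6, an ER disulfide isomerase, was also called in both, by 0.43 in KO (adjusted p = 0.00386) and 0.49 in HET (adjusted p = 0.00169). Xbp1, the transcription factor of the ER stress response, was called in HET (0.37, adjusted p = 0.0217) and not in KO (0.21, adjusted p = 0.147). Hyou1, the ER member of the HSP110 family, was not called (0.12 in KO and 0.15 in HET). The cytosolic cofactors Stip1, which links HSP70 to HSP90, and Ahsa1, which activates HSP90, were not called in either genotype. Hsf1, the transcription factor of the heat shock response, had 35.8, 35.8 and 35.0 FPKM in KO CD62Llo against 38.6, 33.96 and 35.1 in KO CD62Lhi, and 34.3, 31.8 and 33.1 in HET CD62Llo against 38.6 and 33.9 in HET CD62Lhi, and was not called. The genes called in both genotypes were Bag3, Calr, Creld2, Fkbp5, Pdia6 and St13. Of the whole list Bag3, a cofactor of HSP70, had the largest difference, 0.96 in KO and 1.27 in HET. It had 5.41, 5.48 and 3.80 FPKM in KO CD62Llo against 1.90, 2.04 and 2.09 in KO CD62Lhi. In HET it had 6.32, 5.84 and 4.91 FPKM in CD62Llo against 1.74 and 1.79 in CD62Lhi. Between KO CD62Llo and HET CD62Llo 2 of 63 were called (3.17%, against 4.6% of all genes), both lower, namely Fkbp5 (-0.41, adjusted p = 0.00922), a cofactor of HSP90 on steroid receptors, and Ptges3 (-0.27, adjusted p = 0.0481), the HSP90 cofactor p23. The count was 0 to 2 over the alternatives, and 0 with only these 6 libraries fitted. Bag3, Creld2, Fkbp5, Ptges3 and St13 were named after their values were seen.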

How the data were processed

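Poly(A) RNA of sorted Tregs was sequenced from one end on an Illumina instrument, per the labels. One FPKM per gene and library was deposited by the authors, with lower and upper bounds. The submitters' processing notes name CASAVA 1.8.2, Cufflinks 2.1.1, TopHat, FastQC and the build mm10, without settings in the sources used here, and read counts were not used. The bounds served for the implied depth alone. Of the entries above 1 FPKM, 12.1% to 30.8% exceeded their own upper bound, so that depth is uncertain. Each member had 1 entry, and all 83 loci overlapped the RefSeq locus of the same symbol in GRCm38.p6. Starts were made 1-based. RefSeq promoters (GRCm38.p6) were matched by symbol for 68 of 83 members.

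HET CD62Lhi replicate 3 was left out, since 589 of its 23846 entries were above 0, 4 of them members, and the submitters' label leaves it out too. For the other 11 libraries, limma 3.58.1 in R 4.3.3 was run on log2(FPKM + 1). The model had a mean for each of the 4 groups and an empirical Bayes trend, and p was adjusted by Benjamini-Hochberg over 11431 genes that reached 1 FPKM in 2 or more libraries. Contrasts set CD62Llo against CD62Lhi within KO and within HET, KO against HET within CD62Llo and within CD62Lhi, and the genotypes' fraction differences against each other (interaction). The fit was tested on simulated data. The members, gene lists and groupings by compartment were chosen with earlier results of these data known. Members named with all values were the called ones with the largest log2 differences (up to 8 per direction and contrast) whose higher group averaged 5 FPKM or more, and a set of well-known chaperones. Others were named after their values were seen.

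Groups share replicate numbers in the labels, which mention neither a common litter nor a common day. Deviations from the group means correlated at r = 0.165, 0.153 and 0.148 between same-numbered KO and HET CD62Llo libraries, so the numbers pair these by correlation alone. In the other comparisons at least 1 pair had r under 0.1. Between the KO fractions same-numbered pairs had r = 0.131, 0.068 and 0.178, against -0.178 to 0.086 for unlike numbers. Between the HET fractions same-numbered pairs had r = 0.135 and 0.073, against -0.135 to 0.06 for unlike numbers. The deviations of the HET CD62Lhi libraries are mirror images, so the values for unlike numbers there are not separate evidence. In the other groups too, deviations from a mean cancel out, which ties the values for unlike numbers to those of the pairs. A pairing of the fractions by number is thus not settled, and the model above does not use it. Alternatives were quantile normalization, median centring, a pseudocount of 0.1, no filter on low values, only the groups compared, a replicate block, and each library left out. The level of the sorting marker is not reported here.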

Additional observations from a re-analysis of the deposited data

How the results depend on the processing

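Over the alternatives that kept all libraries, the count of members called stayed within 1.5 times its value except in these cases. With only the groups compared fitted, 5 members were called between the HET fractions, against 10. With the replicate block, 1 member (Hspa5) was called between KO and HET CD62Llo, against 0. Leaving out each library in turn gave 2 to 7 members between the KO fractions, 5 to 12 between the HET fractions, and 0 to 2 between KO and HET CD62Llo. Whether the numbers pair the samples of the other contrasts is not settled. In these the replicate block gave 8 members between the KO fractions and 12 between the HET fractions. It gave 0 between KO and HET CD62Lhi and 0 for the interaction. KO against HET in CD62Lhi and the interaction gave 0 members under each alternative run; the interaction uses all groups, so the fit with only the groups compared was not run for it. Over the 66 tested members and 5 contrasts, 46 calls were lost and 30 gained in the recomputed differences. Of 1860 such differences for the 30 named or called members, 46 lost a call and 15 gained one. In 161 the sign turned where neither value was called, and 0 called differences turned. The cause of these changes was not tested, other than that a left-out library or group lowers the number of libraries fitted. Depth is known from the interval bounds alone, and members that reached 1 FPKM in fewer than 2 libraries were not tested.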

Other observations

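The members below were too low or too variable for a call and were chosen after their values were seen. Within a replicate number, the CD62Llo library exceeded the CD62Lhi library of the same genotype for Hspa1a and Hspa1b in 5 of 5 cases each, with the limits given above for this pair. The ratio of CD62Llo to CD62Lhi was 1.88, 1.65 and 2.65 for Hspa1a in KO replicates 1, 2 and 3 and 1.74 and 2.22 in HET replicates 1 and 2. For Hspa1b it was 1.85, 1.94 and 2.46 in KO and 1.75 and 1.74 in HET.

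Hspa2, an HSP70 known for its role in male germ cells, stayed below the filter. It had 0.597, 0.595 and 0.310 FPKM in KO CD62Llo against 0.303, 0.295 and 0.276 in KO CD62Lhi, and 0.670, 0.709 and 0.516 in HET CD62Llo against 0.299 and 0.351 in HET CD62Lhi, so that the fractions did not overlap in either genotype. Hspb1 had 0.330, 1.40 and 0.994 FPKM in KO CD62Llo against 0.107, 0.259 and 0.183 in KO CD62Lhi, without overlap. In HET it had 0.329, 0.900 and 0.358 FPKM in CD62Llo against 0.292 and 0.145 in CD62Lhi, also without overlap. Of the 10 untested members above 0, Hspa12b was lower in CD62Llo without overlap in both genotypes. It had 0 to 0.0525 FPKM in KO CD62Llo against 0.0624 to 0.0955 in KO CD62Lhi. In HET it had 0.0383 to 0.0700 against 0.0927 and 0.104. In HET alone Hspb9 was lower, and Cct8l1, Dnajb3 and Hspb7 higher, in CD62Llo without overlap. The share of all low genes that separate so was not counted. The part of RNA from other cells in these low values was not tested.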
